A study of Mus musculus with 7 samples.

Results

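The genes described here are 8 parts of the machinery that carries a cell from a death signal to the activation of caspases: the death receptor gene Fas, its adaptor Fadd, the initiator caspase genes Casp8 and Casp9, the executioner caspase gene Casp6, the apoptosome scaffold gene Apaf1, and the inhibitor genes Cflar and Xiap. They were taken by symbol (GENCODE vM21) from the 48795 gene identifiers of the count table. All 8 were found, and all 8 were among the 11618 genes with enough counts to be tested. The measurements are bulk RNA sequencing of sorted light zone B cells of the germinal centre, from spleens of mice given sheep red blood cells by vein and sampled at day 10. There were 3 libraries labelled MIZ1KO and 4 labelled Control, and the comparison asks how these genes stand without MIZ1, the zinc finger factor that Zbtb17 encodes. The titles carry MizFF for the MIZ1KO libraries and eYFP for Control, and both groups were immunised alike. The sources used here do not state the Cre driver, the age and sex of the mice or the sorting markers. No label says that each library came from its own animal, so the p-values refer to the spread between libraries, which may be technical.

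Fas is a receptor of the tumour necrosis factor receptor family. When Fas ligand binds it, the adaptor FADD joins the receptor's death domain to procaspase-8, which is activated by clustering, while c-FLIP, the product of Cflar, takes the place of procaspase-8 in the complex and restrains it. In the second route, cytochrome c released from mitochondria makes APAF1 assemble into the apoptosome, which activates caspase-9, and XIAP binds caspase-9 and the executioner caspases and blocks them. Germinal centre B cells are known for high surface FAS, which is widely used to sort them, and for a readiness to die unless they receive survival signals from follicular helper T cells in the light zone.

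Library totals lay between 6896673 and 9482453 estimated counts, of which 3087992 to 5085019 per library were outside ribosomal RNA. Levels are given as CPM, read counts divided by library sizes that were first scaled with the TMM method of edgeR. The 2 groups did not overlap in the share of counts, outside ribosomal RNA, that lay in models of the GENCODE class TEC: 0.544% to 0.923% in MIZ1KO and 1.02% to 2.58% in Control (exact permutation p = 0.0571, two-sided). The share of the same counts in Malat1, a nuclear long non-coding RNA, did not overlap either, at 0.256% to 0.490% in MIZ1KO and 0.687% to 1.52% in Control (exact permutation p = 0.0571, two-sided). The B cell identity genes were present in every library, among them Ms4a1 at 709.9 to 1425 CPM and Pax5 at 297 to 616 CPM. Of the B cell receptor signalling chains, Cd79a averaged 669 CPM in MIZ1KO and 368 CPM in Control, a log2 fold change of 0.86 (adjusted p = 0.0333, edgeR), and Cd79b averaged 901 and 518 CPM (0.80, adjusted p = 0.0556, edgeR). The Cd79a call was lost without MIZ1KO replicate 1 (0.129) or 3 (0.116) or Control replicate 2 (0.0999) or 4 (0.0946). It was also lost with the replicate number added to the fit (adjusted p = 0.0733, edgeR). In both genes the groups did not overlap, and the part of this difference in the members' values was not tested. Germinal centre markers other than Fas summed to between 957 and 1063 CPM in MIZ1KO and to between 1054 and 1293 CPM in Control. In bulk samples, fewer cells of a type and less RNA per cell cannot be told apart.

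None of the 8 genes passed the test between the genotypes. By the quasi-likelihood test of edgeR, with Benjamini-Hochberg adjustment over all 11618 genes, 0 of 8 had an adjusted p under 0.05, and 1 of 8, Fas, had an unadjusted p under 0.05. Among all tested genes, 5.96% passed the adjusted threshold, 1.90% as higher and 4.05% as lower in MIZ1KO, and 24.6% had an unadjusted p under 0.05. DESeq2 called 0 of 8 as well, again with 1 at an unadjusted p under 0.05, and so did limma-voom. In 2 genes the libraries of the groups did not overlap, Fas (lower in MIZ1KO) and Apaf1 (higher), whereas 19.5% of all tested genes had no overlap, 8.74% with MIZ1KO higher and 10.8% with MIZ1KO lower. A fit to the 9841 protein-coding genes alone gave a more even split of calls, 140 higher and 175 lower, than the 221 and 471 over all genes. The median log2 fold change of the 8 genes was -0.16, beside -0.03 over all tested genes, and 6 of 8 lay below 0, beside 52.3% of all tested genes. For 2 of those 6, Fadd and Casp9, the sign turned under some alternatives.

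**Figure D1:**
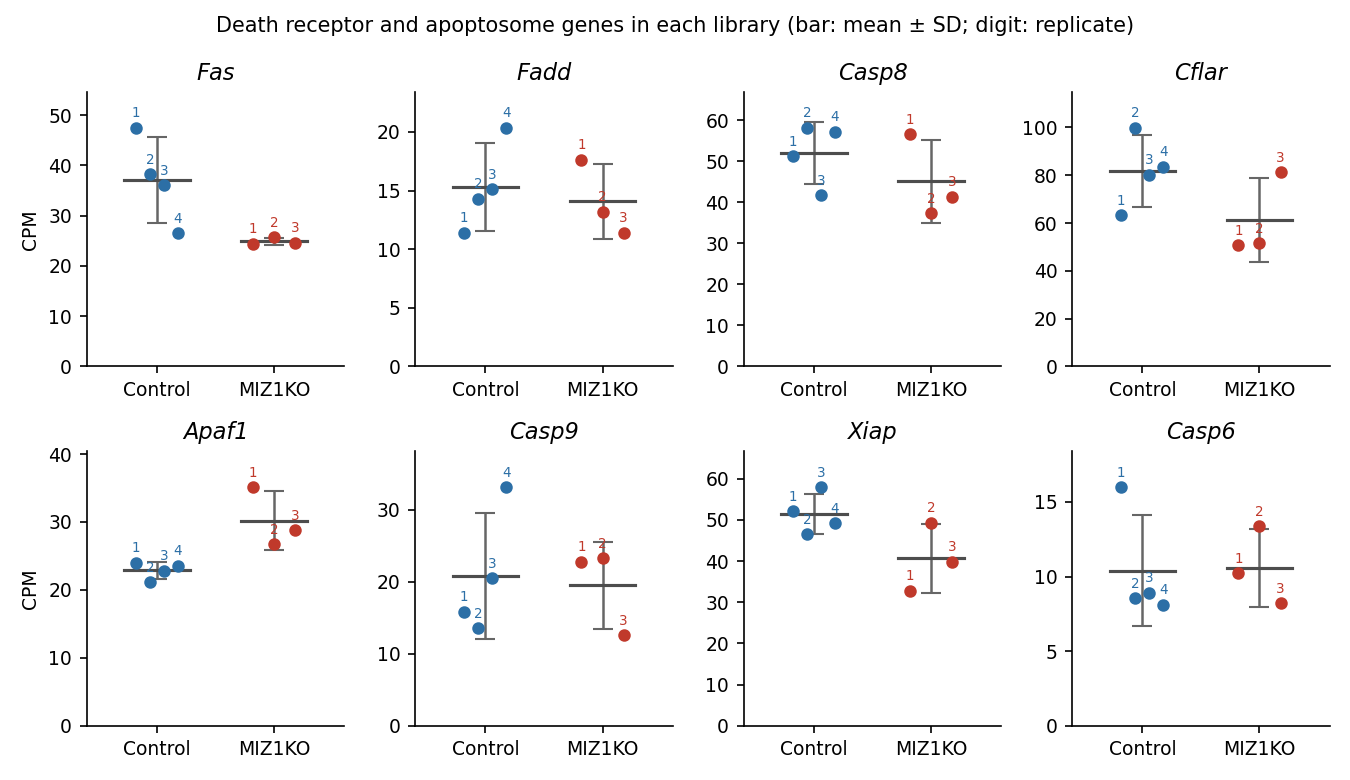
CPM of the 8 genes in each library, with Control in blue and MIZ1KO in red, the replicate number beside each point and the mean ± SD as bars. The MIZ1KO libraries lie within 24.4 to 25.7 CPM for Fas, just under Control replicate 4 at 26.5 CPM, and the groups are apart for Fas and Apaf1 only.

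The region upstream of the start is shown for Fas and Apaf1, the 2 genes whose libraries did not overlap. Each stretch runs 5′ to 3′ on the gene's own strand from 200 to 31 bases before the start given by RefSeq (GRCm38.p6), chr19:34290459-34290628 on the plus strand for Fas and chr10:91082774-91082943 on the minus strand for Apaf1. Capitals mark CACGTG, the E-box hexamer that MYC and MAX bind, and GGGCGG, the GC box of SP1-type factors.
Fas: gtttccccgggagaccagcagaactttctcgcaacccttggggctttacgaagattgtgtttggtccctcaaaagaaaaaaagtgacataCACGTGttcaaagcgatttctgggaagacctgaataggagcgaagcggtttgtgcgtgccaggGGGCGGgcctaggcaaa
Apaf1: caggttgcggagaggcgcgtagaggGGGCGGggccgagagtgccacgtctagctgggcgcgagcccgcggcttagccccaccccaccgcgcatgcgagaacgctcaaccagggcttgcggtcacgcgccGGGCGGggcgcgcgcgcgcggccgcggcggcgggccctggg

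In the 250 bases before the start, searched on both strands, CACGTG was found upstream of 1 of the 8 genes, Fas, and in 6.02% of all 32851 RefSeq windows of that length. GGGCGG was found upstream of 6 of 8, all but Casp8 and Cflar, and in 32.7% of all windows. ATCGAT, a hexamer reported for MIZ1, was found upstream of none of the 8 and in 0.728% of all windows. RefSeq had a window for all 8 genes, which had 10 entries in it. The 8 were counted per gene, while the share was taken over all windows and not limited to tested genes. The counts and shares are thus not like for like. A match of letters is a description and does not show that a factor binds there.

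Fas (ENSMUSG00000024778, chromosome 19, 34290666 to 34327772, GRCm38) was lower in MIZ1KO by size but did not pass the test. It measured 24.4, 25.7 and 24.6 CPM in MIZ1KO replicates 1 to 3 and 47.5, 38.3, 36.1 and 26.5 CPM in Control replicates 1 to 4. The MIZ1KO libraries were close together and the Control libraries were spread, with Control replicate 4 nearly at the MIZ1KO level. The means were 24.9 ± 0.687 CPM (SD, n = 3) and 37.1 ± 8.63 CPM (SD, n = 4). This gave a log2 fold change, MIZ1KO over Control, of -0.57 ± 0.24 (SE), with an unadjusted 95% interval from -1.08 to -0.06 and an adjusted p of 0.160 (edgeR). On the linear scale this is a ratio of 0.674 with an interval from 0.473 to 0.962. These values rest on 153 to 362 counts per library. The sources used here do not say whether FAS was a marker of the sort.

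Fadd (ENSMUSG00000031077, chromosome 7, 144577318 to 144582463), the adaptor between receptor and caspase, lay at similar levels in both groups. It measured 17.6, 13.2 and 11.4 CPM in MIZ1KO and 11.4, 14.3, 15.1 and 20.4 CPM in Control, so the 2 ranges nearly coincided. Its log2 fold change was -0.12 ± 0.30 (SE, adjusted p = 0.852, edgeR), and the interval from -0.75 to 0.51 holds changes in either direction. Fadd overlaps the antisense model Faddos, which had between 0 and 10 counts in a library.

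Casp8 (ENSMUSG00000026029, chromosome 1, 58795374 to 58847503), the initiator caspase of the death receptor complex, measured 56.6, 37.4 and 41.3 CPM in MIZ1KO and 51.3, 58.2, 41.7 and 57.2 CPM in Control. MIZ1KO replicate 1 lay among the Control libraries, and the other MIZ1KO libraries lay just below the lowest of them. For Casp8 the log2 fold change was -0.21 ± 0.22 (SE), with an interval from -0.67 to 0.26 and an adjusted p of 0.611 (edgeR).

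Cflar (ENSMUSG00000026031, chromosome 1, 58711508 to 58758884), which encodes the restraint on caspase-8, is the neighbour of Casp8, with 36.5 kb between the models. It measured 50.7, 51.5 and 81.4 CPM in MIZ1KO and 63.2, 99.9, 80.2 and 83.6 CPM in Control. MIZ1KO replicates 1 and 2 lay below every Control library, while replicate 3 lay among them. The difference between the groups was -0.42 ± 0.23 (log2 fold change, SE), with an interval from -0.90 to 0.05 and an adjusted p of 0.259 (edgeR). Without MIZ1KO replicate 3 it was -0.67 (adjusted p = 0.142, edgeR), a larger difference that still did not pass.

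**Figure D2:**
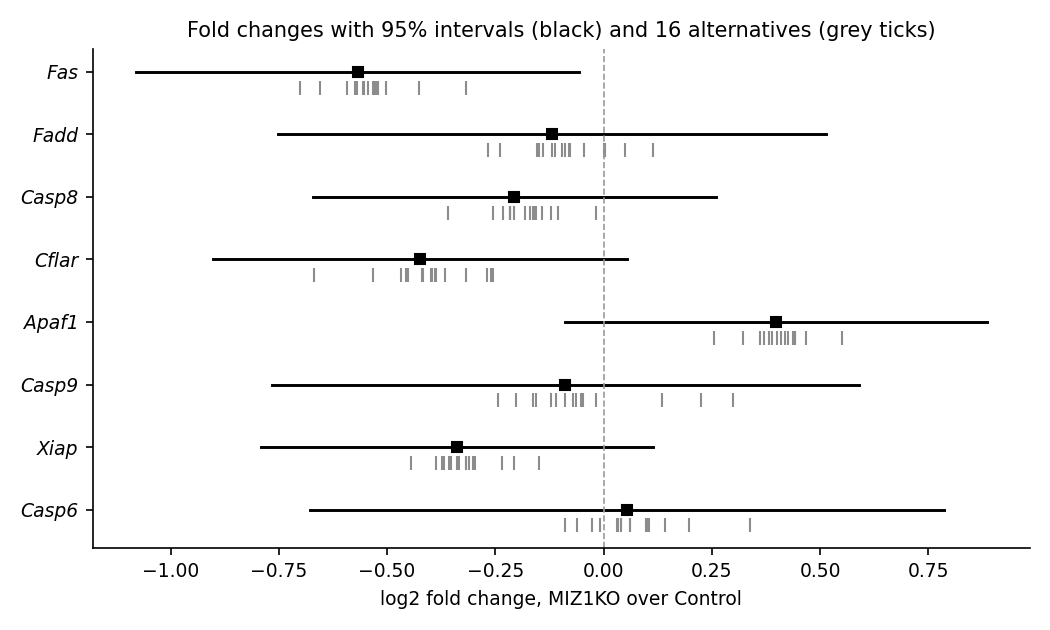
Log2 fold change of MIZ1KO over Control for the 8 genes (black squares) with unadjusted 95% intervals (black lines), and the values under the 16 alternatives (grey ticks). The interval lies apart from 0 for Fas only, and the ticks lie on both sides of 0 for Fadd, Casp9 and Casp6.

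Apaf1 (ENSMUSG00000019979, chromosome 10, 90989311 to 91082770), the scaffold of the apoptosome, was the only 1 of the 8 whose MIZ1KO libraries all lay above Control. It measured 35.1, 26.7 and 28.8 CPM in MIZ1KO and 24.0, 21.2, 22.8 and 23.6 CPM in Control. Here the Control libraries were close together and MIZ1KO replicate 1 was the highest. The means were 30.2 ± 4.40 CPM (SD, n = 3) and 22.9 ± 1.25 CPM (SD, n = 4). Apaf1 thus had a log2 fold change of 0.40 ± 0.23 (SE), with an interval from -0.09 to 0.89 and an adjusted p of 0.301 (edgeR), so this difference did not pass the test either.

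Casp9 (ENSMUSG00000028914, chromosome 4, 141793612 to 141815976), the caspase that the apoptosome activates, measured 22.8, 23.3 and 12.6 CPM in MIZ1KO and 15.9, 13.5, 20.5 and 33.2 CPM in Control. Both groups were spread, with the highest value in Control replicate 4 and the lowest in MIZ1KO replicate 3. The log2 fold change was -0.09 ± 0.32 (SE, interval from -0.77 to 0.59, adjusted p = 0.901, edgeR). Without Control replicate 4 it was 0.30 (adjusted p = 0.658, edgeR), and without MIZ1KO replicate 3 it was 0.14 (adjusted p = 0.855, edgeR). Casp9 lies 326 kb from Zbtb17, the targeted gene, on the same chromosome. Of the 16 tested genes within 1 Mb of Zbtb17, 1 passed the test, beside 5.96% of all tested genes.

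Xiap (ENSMUSG00000025860, chromosome X, 42059679 to 42109656), the inhibitor of caspase-9 and of the executioner caspases, measured 32.8, 49.4 and 39.9 CPM in MIZ1KO and 52.2, 46.5, 58.0 and 49.2 CPM in Control. MIZ1KO replicates 1 and 3 lay below every Control library and replicate 2 lay among them. The log2 fold change was -0.34 ± 0.22 (SE), with an interval from -0.79 to 0.12 and an adjusted p of 0.352 (edgeR). Without MIZ1KO replicate 1 it was -0.15 (adjusted p = 0.800, edgeR).

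Casp6 (ENSMUSG00000027997, chromosome 3, 129901425 to 129914103), an executioner caspase known to cleave nuclear lamins, had the lowest CPM of the 8 in most libraries. It measured 10.2, 13.4 and 8.20 CPM in MIZ1KO and 16, 8.56, 8.92 and 8.12 CPM in Control. Control replicate 1 stood well above the other Control libraries, which spanned less than 1 CPM. The log2 fold change was 0.05 ± 0.35 (SE, interval from -0.68 to 0.79, adjusted p = 0.945, edgeR), and without Control replicate 1 it was 0.34 (adjusted p = 0.567, edgeR). Casp6 rested on 51 to 134 counts per library, the fewest of the 8, and its interval was the widest of them.

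Levels of different genes were compared per length, as CPM per kilobase (kb) of merged exons. In Control, Casp8 and Fas stood highest, at 18.01 ± 2.61 and 17.98 ± 4.18 CPM per kb (SD, n = 4), and could not be ordered. Cflar followed at 6.45 ± 1.19 and Xiap at 5.44 ± 0.521 CPM per kb, with overlapping ranges. Casp9 at 3.995 ± 1.69 and Fadd at 3.92 ± 0.955 CPM per kb overlapped each other, and Casp9 overlapped Xiap. Apaf1 at 2.54 ± 0.139 CPM per kb lay below the range of Fadd, and Casp6 at 1.86 ± 0.671 CPM per kb overlapped Apaf1. The receptor and its caspase thus stood highest per length, and in every library both lay above each of the other 6 genes. They also have the shortest merged exons of the 8, at 2.06 kb for Fas and 2.89 kb for Casp8. By CPM without the division, Cflar had the highest Control mean, at 81.7 beside 52.1 for Casp8 and 37.1 for Fas.

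In MIZ1KO the order of the means was the same, while the neighbours that lay apart changed. Casp8 at 15.6 ± 3.52 CPM per kb (SD, n = 3) and Fas at 12.1 ± 0.333 CPM per kb no longer overlapped. Apaf1 at 3.35 ± 0.488 CPM per kb overlapped Fadd at 3.61 ± 0.819 and lay apart from Casp6 at 1.90 ± 0.468 CPM per kb. These are descriptions of ranges, with no test. The level of a long gene model such as Cflar, with 12.7 kb of merged exons, is understated where the cells use only its shorter transcripts.

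**Figure D3:**
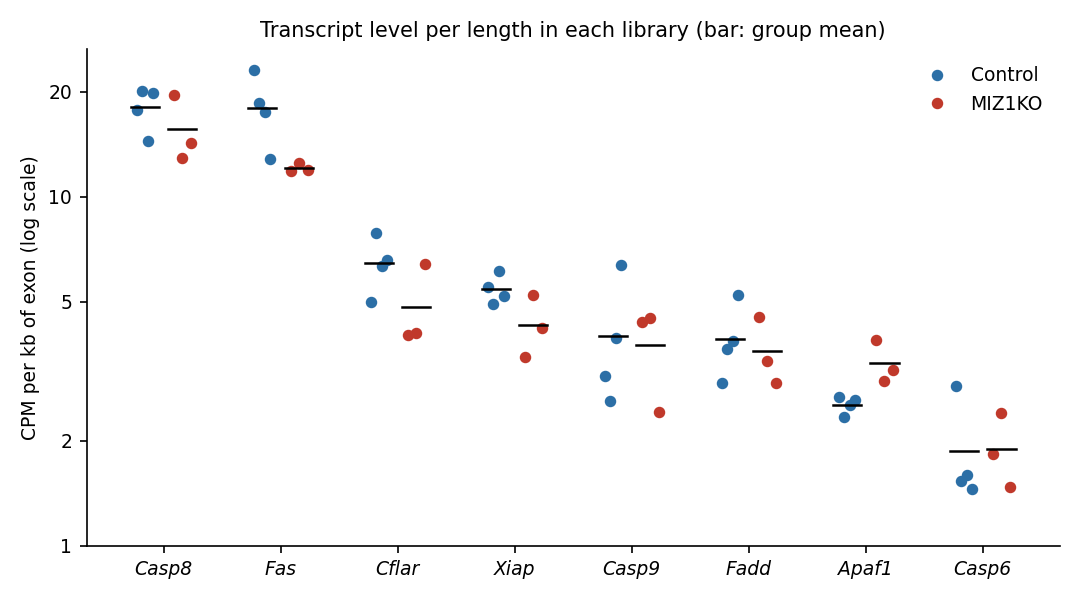
CPM per kb of merged exons for the 8 genes in each library, on a log axis, with group means as bars and genes ordered by the Control mean. Casp8 and Fas lie at 11.8 CPM per kb or more in every library and the other 6 genes at 7.88 or less.

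The balance between partners was compared as the ratio of their levels per length in each library, which does not depend on library scaling. The ratio of Cflar to Casp8, restraint over caspase, was 0.205, 0.314 and 0.450 in MIZ1KO and 0.282, 0.392, 0.439 and 0.334 in Control. The groups overlapped fully, with both the lowest and the highest value in MIZ1KO (exact permutation p = 0.571, two-sided). Xiap over Casp9 was 0.790, 1.16 and 1.75 in MIZ1KO and 1.81, 1.89, 1.56 and 0.814 in Control, again with overlap (exact permutation p = 0.457). Apaf1 over Casp9 was 0.888, 0.660 and 1.32 in MIZ1KO and 0.871, 0.900, 0.642 and 0.409 in Control (exact permutation p = 0.343). Fas over Fadd was 2.62, 3.69 and 4.08 in MIZ1KO and 7.88, 5.06, 4.53 and 2.46 in Control (exact permutation p = 0.343). Adjusted over the 4 ratios, every p was 0.571, and the smallest p that 35 splits allow is 0.0286. The libraries of 1 genotype differed from each other by as much as the groups did.

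**Figure D4:**
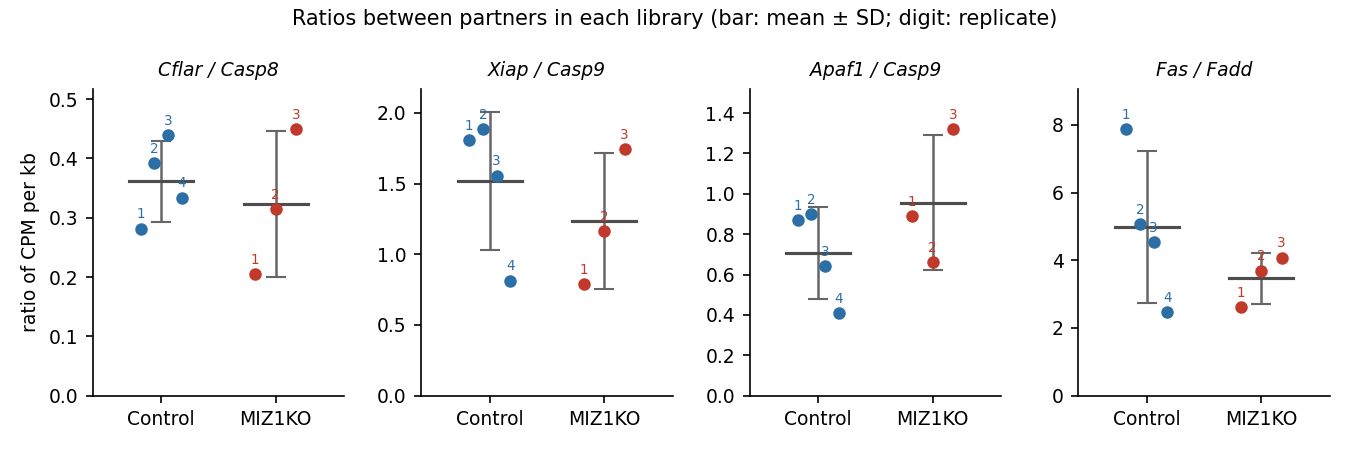
Ratio of the levels per length of 4 pairs of partners in each library, with Control in blue, MIZ1KO in red and the mean ± SD as bars. The groups overlap in each pair, and Control replicate 4 has the lowest Control value in 3 of the 4.

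Around these 8 genes, 71 other genes of the pathway were counted in 6 lists, of which 62 were tested. Of these 62, 1 rose in MIZ1KO and 0 fell, beside the 5.96% of all tested genes that passed in either direction; 12 of 62 had an unadjusted p under 0.05, beside 24.6% of all tested genes. The median log2 fold change was 0.21, beside -0.03 over all tested genes. Of the 62, 43 lay above 0 and 19 below, while 52.3% of all tested genes lay below 0. In 10 of the 62 the groups did not overlap, beside 19.5% of all tested genes.

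Among death receptors and their ligands, Fasl, which encodes the ligand of Fas, had 0 counts in all 7 libraries, where a count of 0 allows up to 0.483 CPM in a library (counting error only). Tnfrsf25 was also at 0, and the receptor gene Tnfrsf1a had 4 counts in all. None of the 6 tested members passed. Ltb, a membrane ligand that pairs with lymphotoxin alpha, came closest, at 41.7, 38.6 and 38.6 CPM in MIZ1KO against 33.2, 19.6, 9.45 and 14.5 CPM in Control, a log2 fold change of 1.05 ± 0.31 (SE, adjusted p = 0.0535, edgeR). Lta measured 0.25 ± 0.28, Tnfrsf1b 0.29 ± 0.42 and Tnfrsf10b, the TRAIL receptor, 0.43 ± 0.64.

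Of the 18 tested adaptors and regulators of the receptor complexes, 13 lay above 0 and none passed. Fcmr, an Fc receptor for IgM once described as an inhibitor of Fas signalling, measured a log2 fold change of 0.59 ± 0.21 (adjusted p = 0.0973, edgeR). Ripk3, the kinase of necroptosis, measured 0.51 ± 0.27 (adjusted p = 0.263, edgeR), while Mlkl, which carries out necroptosis after RIPK3, had 1 count in all. Daxx measured 0.70 ± 0.33 and Tnfaip8 -0.43 ± 0.20, both with an adjusted p of 0.194 (edgeR).

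Of the 8 other caspase and related genes tested, none passed, and Casp12 had 0 counts. Casp4, an inflammatory caspase, measured a log2 fold change of -0.75 ± 0.29 (adjusted p = 0.125, edgeR), and each MIZ1KO library lay below each Control library. Casp2 measured -0.18 ± 0.20.

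Among the apoptosome's partners and proteins released from mitochondria, 0 of 10 tested passed. Cycs, which encodes cytochrome c, was at 42.9 ± 22.2 CPM in Control (SD, n = 4) and at 42.0 ± 14.2 CPM in MIZ1KO (n = 3). Aifm1, a mitochondrial flavoprotein, measured 0.78 ± 0.28 (log2, adjusted p = 0.0977, edgeR). The chaperone genes Hsp90aa1, Hspd1 and Hspe1 measured 0.35 ± 0.21, 0.45 ± 0.21 and -0.64 ± 0.31, with no shared direction.

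Of the inhibitor of apoptosis family and its partners, 0 of 9 passed. The relatives Birc2 and Birc3, which encode cIAP1 and cIAP2, measured -0.41 ± 0.24 and 0.43 ± 0.20 (adjusted p = 0.295 and 0.194, edgeR). Naip2 and Naip5 measured 0.97 ± 0.55 and -0.87 ± 0.86, at no more than 4 CPM on average.

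Of 11 tested caspase substrates, 10 lay above 0, and Lmnb1, which encodes lamin B1 of the nuclear lamina, rose. It measured 78.9, 79.2 and 105 CPM in MIZ1KO and 51.4, 53.2, 41.2 and 50.4 CPM in Control, a log2 fold change of 0.84 ± 0.20 (SE) with an adjusted p of 0.0235 (edgeR). Every MIZ1KO library lay above every Control library. Lmnb1 lost its call when MIZ1KO replicate 1 was left out (adjusted p = 0.0861, edgeR), and likewise for MIZ1KO replicate 3 (0.09998), for Control replicate 2 (0.0600) and for Control replicate 4 (0.0610). Parp1, the DNA repair enzyme cut early in apoptosis, measured 0.59 ± 0.20 (adjusted p = 0.0847, edgeR). Dffa, the inhibitor of the apoptotic nuclease, measured 0.80 ± 0.29 (adjusted p = 0.0996, edgeR) and the channel gene Panx1 0.79 ± 0.34 (adjusted p = 0.164, edgeR). The list's median was 0.44, the highest of the 6, beside -0.03 over all tested genes.

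**Figure D5:**
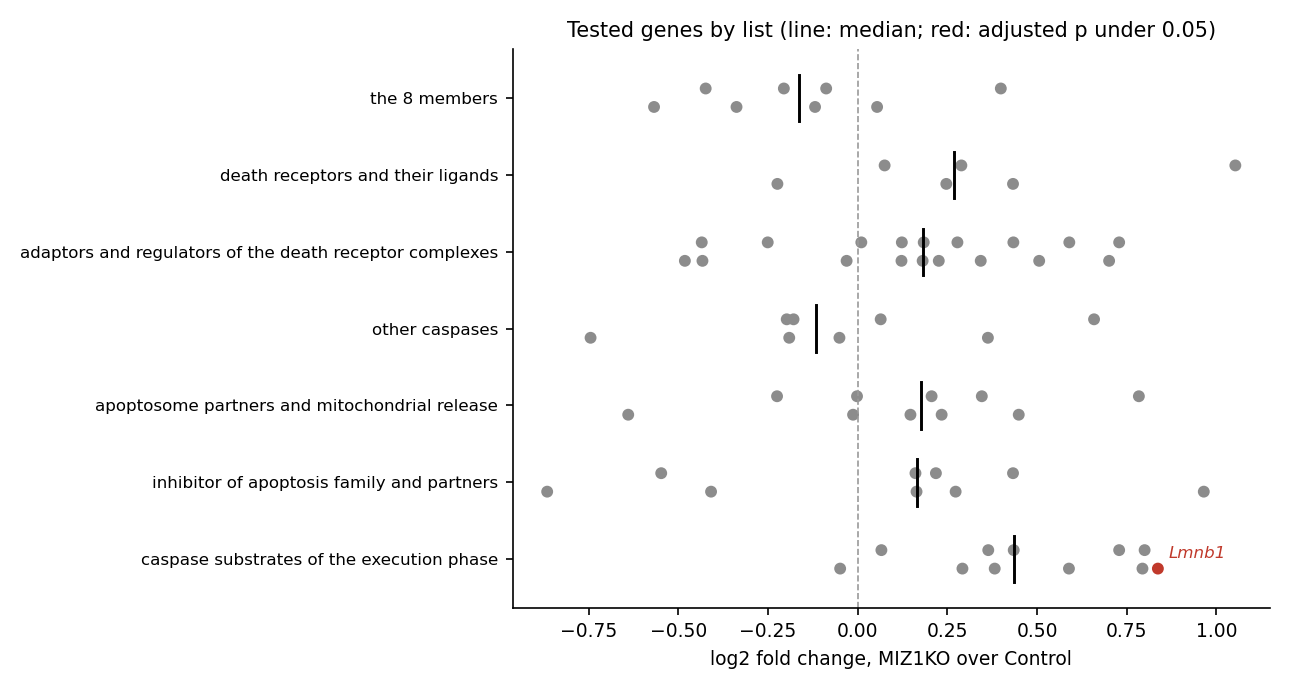
Log2 fold change of MIZ1KO over Control for each tested gene of the 8 genes and the 6 lists, 1 point per gene, with the list's median as a black line and genes with an adjusted p under 0.05 in red. Lmnb1 is the only point in red, and the median is -0.16 for the 8 genes and 0.44 for the caspase substrates.

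The genes whose pattern over the 7 libraries was most like that of Fas were Ilf2, Tmed7 and Fbxo33, among 6300 protein-coding genes. The measure was the root mean square difference in log2 CPM after centring, which was 0.10, 0.13 and 0.13 for these genes, beside a median of 0.49 over all genes compared. Ilf2 was at 18.6, 24.3 and 22.4 CPM in MIZ1KO and 40.7, 36.3, 30.7 and 23.9 CPM in Control, and so shared with Fas a Control replicate 4 near the MIZ1KO level. For Apaf1 the most alike were Sae1, Mlec and Unc93b1, with differences of 0.05, 0.07 and 0.08 beside a median of 0.40. None of these 6 genes passed the test themselves, with adjusted p-values from 0.156 to 0.332 (edgeR). They were picked for likeness to Fas and Apaf1 over the same libraries, and neither of those passed. This outcome, and the Control replicate 4 level that Ilf2 shares with Fas, thus follow from the choice.

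Markers of T cells, which carry Fas and Fas ligand, were low but uneven. Without Lck, which was at 24.7 to 40.4 CPM in all libraries, the 6 T cell markers summed to 1.72, 8.89 and 16.9 CPM in MIZ1KO and to 0.131, 1.56, 1.181 and 1.203 CPM in Control. They were thus higher in each MIZ1KO library, the group in which Fas was lower, and their part in the values above was not tested. Of the 8 myeloid markers, which summed to at most 24.1 CPM in a library, C1qa was at 0 throughout, and the 5 NK cell markers summed to at most 5.13 CPM. The myeloid gene Lyz2 averaged 10.7 CPM in MIZ1KO and 3.19 CPM in Control (log2 fold change 1.68, adjusted p = 0.0712, edgeR). It was uneven, at 2.04, 13.5 and 16.4 CPM in MIZ1KO replicates 1 to 3, and replicate 1 lay below every Control library. The other tested myeloid markers, Csf1r and Cd68, had log2 fold changes of 0.66 and 0.10 (adjusted p = 0.655 and 0.935, edgeR). The untested S100a8 averaged 0.474 CPM in MIZ1KO and 1.14 CPM in Control. The 5 erythroid markers summed to 60.7 to 475 CPM in MIZ1KO and 112 to 418 CPM in Control, and the part of these cells in the results was not tested. Rgs13, 1 of the 8 germinal centre markers, fell by 1.32 on the log2 scale in MIZ1KO, from 168 to 67.1 CPM (adjusted p = 0.0230, edgeR), and the other 7, with Fas, did not pass. That call was lost when MIZ1KO replicate 1 (0.165) or 3 (0.0774) or Control replicate 2 (0.0647) or 4 (0.0511) was left out, and on the deposited log2 values (0.0531).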

How the data were processed

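RNA of 7 sorted B cell samples was sequenced, 3 labelled MIZ1KO and 4 labelled Control. The authors deposited expected counts per gene without normalization, of which 6.61% are not whole. STAR 2.5.2, RSEM 1.3.0 and GRCm38 are named per the submitters' processing notes, with no role given. The sources used here do not state the strand setting. The authors also deposited log2 values, called variance-stabilised in their title, used here as an alternative. The notes name DESeq2 1.18.1 and R 3.4.3.

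Counts were rounded, filtered with filterByExpr, scaled by TMM and tested in edgeR 4.0.16 by quasi-likelihood (glmQLFit with legacy=FALSE and robust, glmQLFTest; R 4.3.3), two-sided, with genotype as the single term and Benjamini-Hochberg adjustment over 11618 genes. The threshold was an adjusted p of 0.05. The test was checked on simulated data with larger changes than those of the 8 genes, so the check does not cover changes of their size. Intervals are unadjusted. Log2 CPM used a prior count of 2. Symbols, positions and exon lengths came from GENCODE vM21. DESeq2 1.42.0 and limma 3.58.1 were alternatives.

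The 8 genes, the lists and the 4 ratios were chosen with earlier results of these data known. All 8 genes are named. From each list the 4 tested genes with the smallest p and any gene past the threshold are named, except a few that are not reported here, and others only with a level or a count (Cycs, Mlkl, Tnfrsf1a and genes at 0, chosen after their values were seen). Alike genes were the 3 nearest to Fas and to Apaf1, the genes with the smallest p on each side, among protein-coding genes with a mean of at least 10 CPM. As a check for a library deposited more than once, no pair within a group agreed within counting noise (chi-square per degree of freedom at least 15.8).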

Additional observations from a re-analysis of the deposited data

Results flagged for a closer look

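Casp6 in Control was marked because 1 library stood far from the rest of its group. Control replicate 1 measured 16 CPM, the other 3 measured 8.56, 8.92 and 8.12 CPM, and the gap to the nearest was 0.898 of the group's range, above Dixon's 95% critical value for 4 samples. Chance marks about 1 in 20 groups, and 8 were examined. Casp6 rested on 122 counts in that library. Without it the log2 fold change of Casp6 moved from 0.05 to 0.34 (adjusted p = 0.567, edgeR).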

How the results depend on the processing

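Under all 16 alternatives 0 of the 8 genes passed the threshold, with a lowest adjusted p of 0.118, for Cflar without Control replicate 1. Fas (log2 fold change from -0.70 to -0.32), Casp8 (-0.36 to -0.02), Cflar (-0.67 to -0.26), Xiap (-0.45 to -0.15) and Apaf1 (0.25 to 0.55) kept their sign in all 16. The replicate block turned the sign of Fadd (0.05), Casp9 (0.23) and Casp6 (-0.061). Control replicate 4 has no MIZ1KO library of its number, so in the block it adds nothing to the genotype difference. Without that library, and with no block, the same signs turned, at 0.11, 0.30 and -0.0087. Leaving out single libraries gave Fadd -0.27 to 0.11, including 0.0016 without MIZ1KO replicate 2 and 0.0041 without MIZ1KO replicate 3, Casp9 -0.24 to 0.30, including 0.14 without MIZ1KO replicate 3, and Casp6 -0.089 (without MIZ1KO replicate 2) to 0.34, including -0.03 without Control replicate 2 and -0.0087 without Control replicate 4. The cause was not tested. Same-numbered libraries deviated together with correlations across genes of 0.023, 0.066 and 0.162, MIZ1KO replicates 1 and 3 correlated best with the Control library of their own number, and MIZ1KO replicate 2 with Control replicate 1 (0.134). No label pairs them and not every same-numbered correlation was over 0.1, so the numbers were not taken as pairs. The block left Fas at -0.70 (adjusted p = 0.119, edgeR) and 476 of all genes called, against 692.

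Of the 62 tested pathway genes, 1 was called, against 4 in DESeq2 and 2 each with library totals, without the filter, in limma-voom and without ribosomal RNA genes, and 0 to 4 when single libraries were left out. In the 4 alternatives with 2 besides single libraries, Ltb was the second gene. Over all genes the calls ran from 39 without MIZ1KO replicate 1 to 1350 without Control replicate 1, with 1120 in DESeq2, 579 without the filter, 468 in the legacy fit, 429 on the deposited log2 values, 342 in limma-voom and 315 among protein-coding genes. Calls without a library rest on fewer samples. Without the filter the median of all genes was -0.14, against -0.03. Casp6 had 51 to 134 counts per library and Fadd 71 to 203, and the unadjusted interval of each of the 8 genes includes a change of 1.5-fold in at least 1 direction.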

Other observations

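Inside the Casp8 gene, GENCODE places Gm37760, a single-exon model of the class TEC on the same strand (chromosome 1, 58797783 to 58801623), which shares no exonic base with Casp8. It was examined after the values were seen. Gm37760 measured 5.70, 6.69 and 18.02 CPM in MIZ1KO and 31.1, 47.1, 38.5 and 34.4 CPM in Control, with every MIZ1KO library below every Control library. Its means were 10.1 ± 6.84 CPM (SD, n = 3) and 37.8 ± 6.94 CPM (SD, n = 4), a log2 fold change of -1.97 ± 0.35 (SE) with an adjusted p of 0.00749 (edgeR). Leaving out MIZ1KO replicate 1 ended this call (adjusted p = 0.0710, edgeR), which held in the other 14 alternatives that tested it. Casp8 itself measured -0.21 ± 0.22 with overlapping groups. The share of all TEC models was lower in MIZ1KO too, at 0.544% to 0.923% against 1.02% to 2.58%, as was that of Malat1, at 0.256% to 0.490% against 0.687% to 1.52%, and their part in this fall was not tested.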
